A study of Mus musculus with 11 samples.

Results

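The 10 smooth muscle contractile genes *Acta2*, *Actg2*, *Myh11*, *Tagln*, *Cnn1*, *Des*, *Smtn*, *Mylk*, *Tpm2* and *Lmod1* were followed through the 27 RNA libraries of a study that modelled ovarian cancer in mouse organoids. They were chosen by name, as genes that mark smooth muscle, out of 18305 genes in the table of counts, and all 10 had a row there. In GRCm38 they lie apart on 7 chromosomes, for example *Acta2* at chr19:34241090-34255590, *Myh11* at chr16:14194535-14291372, *Des* at chr1:75360329-75368579, *Tpm2* at chr4:43514711-43523765 and *Smtn* at chr11:3517523-3540612. The study asked from which epithelium, that of the oviduct or the ovarian surface epithelium (OSE), such tumors can arise. RNA was read by CEL-Seq2, which tags and counts the 3′ end of each transcript, so that levels of different genes are not ranked against each other here.

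The normal samples were 3 libraries of oviduct tissue and 3 of OSE tissue, with 3 of oviductal organoids and 2 of OSE organoids, all from C57BL/6 mice. Another 3 libraries came from oviductal organoids of mice that express Cas9 and GFP from the Rosa26 locus. From such organoids the authors made TBP clones, which carry mutations made with sgRNAs and were selected with Nutlin-3a, a compound that removes cells with intact p53. The edits are made in coding sequence, so the 3′ counts of the targeted genes do not check these labels. There were 3 libraries of TBP clones and 6 of TBP tumors, which grew after TBP clones were transplanted into immunodeficient NSG mice. According to the study's reporting summary, the sequenced tumors grew under the skin. The tumors can therefore hold cells of the host, such as its stroma and blood vessels. The remaining 4 libraries were organoids regrown from tumors, namely T1-mes and T3-mes, in which fibroblast-like GFP-positive cells grew with the epithelium, and T2-epi and T4-epi, which were epithelial. All organoid cultures were kept in a medium for epithelial growth. The study's methods call the tissue samples, organoid lines and tumors independent, without giving the animal of each. T1-mes and T2-epi came from adjacent tumors of the same clone, which the paper pictures on the left and right of a mouse. The main tests did not pair libraries. Where libraries share an animal or a clone, p-values measure only the spread between these libraries.

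Depth ranged from 82239 counts in TBP clone 1 to 4531767 in TBP clone 3. Expression is given in CPM, the counts relative to the library's total as scaled by edgeR's TMM factors. A library with no read of a gene was taken to allow up to 3 counts, which came to between 0.670 CPM in the deepest and 34.1 CPM in the shallowest of the TBP clones. Reads were not collapsed by their molecular identifiers, so intervals and limits cover counting error only. In oviduct tissue all 10 genes had reads in each library, while 14 genes of skeletal muscle summed to 16.8 to 31.5 CPM there. OSE tissue also carried ovarian RNA: 7 genes of ovarian stroma and granulosa cells summed to between 9494 and 11474 CPM, against 68.7 to 285 CPM in oviduct tissue.

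Smooth muscle cells shorten when myosin filaments slide along actin. Calcium, bound to calmodulin, activates myosin light chain kinase, and this enzyme switches on the smooth muscle myosin motor. The wall of the oviduct holds layers of such cells, which move the egg and the embryo. Part of the same program, above all *Acta2* and *Tagln*, is also used by pericytes around vessels and by myofibroblasts in wounds and tumors, whereas the myosin heavy chain *Myh11* marks mature smooth muscle more strictly. Many of these genes are driven by serum response factor and its partner myocardin through a sequence called the CArG box.

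Because the genes move together, the start sites of the members were searched for that sequence. RefSeq promoters, covering 250 bases before to 50 bases after the start in GRCm38.p6, were matched for 7 of the 10 members: *Acta2*, *Cnn1*, *Des*, *Lmod1*, *Mylk*, *Smtn* and *Tpm2*. A perfect CArG box, searched on both strands, was in 0 of these 7 windows and in 1.63% of 32851 promoters. With exactly 1 of the central A or T letters replaced by C or G, it was in 1 of the 7, that of *Acta2*, and in 8.50% of all promoters. The windows of *Acta2* (chr19:34255324-34255623, minus strand) and of *Smtn* (chr11:3539243-3539542, minus strand) are shown because these genes lie at opposite ends of the pattern described below, *Acta2* nearly silent in culture and *Smtn* not. Capitals mark the matches with 1 replaced letter, which begin 84 and 34 bases before the start of *Acta2*.
Acta2: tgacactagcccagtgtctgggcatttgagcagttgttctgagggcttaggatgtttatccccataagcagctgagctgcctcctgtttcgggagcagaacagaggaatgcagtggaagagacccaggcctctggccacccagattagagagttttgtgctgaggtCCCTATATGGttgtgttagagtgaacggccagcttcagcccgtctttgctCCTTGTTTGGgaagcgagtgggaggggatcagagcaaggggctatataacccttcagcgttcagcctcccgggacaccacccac
Smtn: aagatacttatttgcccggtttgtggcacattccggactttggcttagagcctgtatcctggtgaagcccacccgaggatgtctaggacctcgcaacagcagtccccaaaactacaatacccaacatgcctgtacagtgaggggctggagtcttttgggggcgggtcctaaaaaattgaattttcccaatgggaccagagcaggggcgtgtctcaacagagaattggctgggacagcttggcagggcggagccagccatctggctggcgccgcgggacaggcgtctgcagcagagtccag
No motif of this kind was found in the *Smtn* window, which says only that these letters are not in it.

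Oviduct tissue held the highest mean of 9 of the 10 genes, the exception being *Tpm2*. *Acta2*, the smooth muscle α-actin of the thin filament, had 3370, 3578 and 3449 CPM in the 3 oviduct libraries. In OSE tissue it had 540, 378 and 392 CPM. The TBP tumors ranged from 168 CPM in Tumor2 to 795 CPM in Tumor1, which brackets OSE tissue and stays under every oviduct library. Among the 15 libraries of cultured cells, 11 had no read of *Acta2*, and the highest, T1-mes, had 11 reads or 4.93 CPM.

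**Figure D1:**
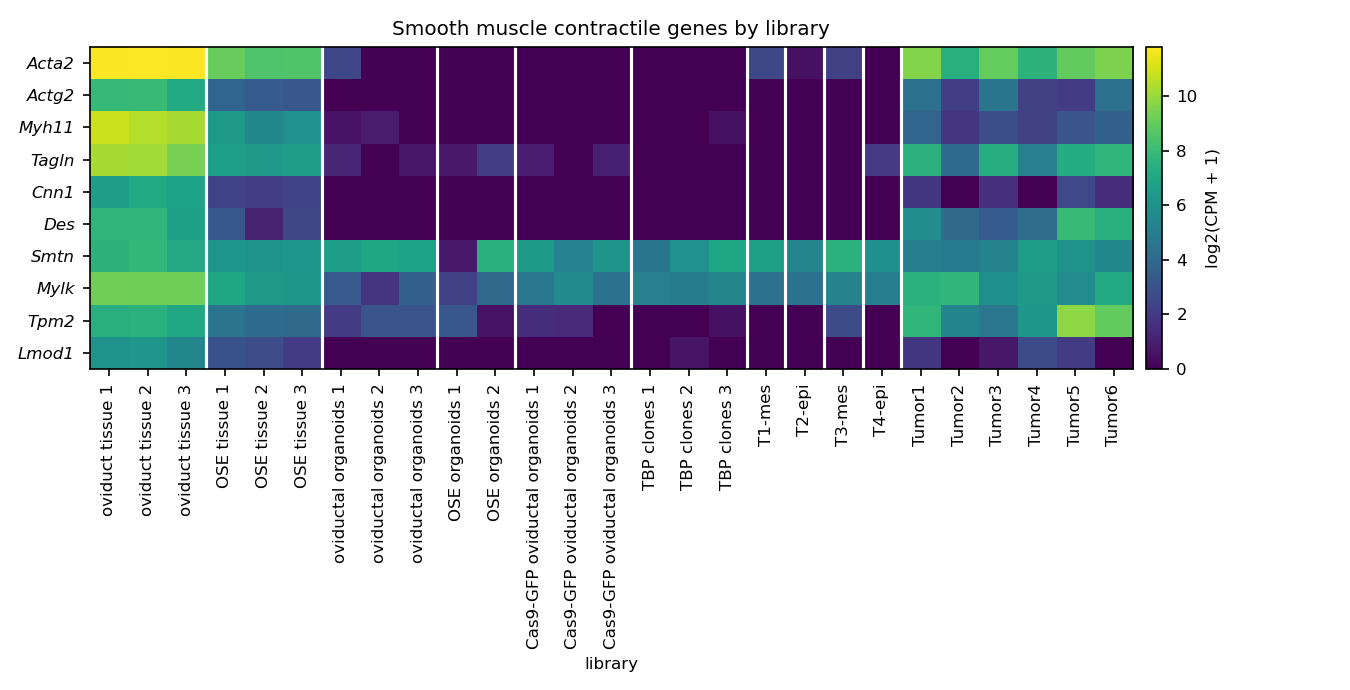
Level of each of the 10 genes (rows) in each of the 27 libraries (columns) as log2(CPM + 1), with white lines between neighbouring libraries of different groups. Oviduct tissue is bright throughout, cultured cells are dark except for *Smtn* and *Mylk*, and the tumors vary, with *Tagln* dimmer in Tumor2 and Tumor4 (16.7 and 33.8 CPM) and *Des* and *Tpm2* brightest in Tumor5 and Tumor6.

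*Myh11*, the motor of the thick filament, had 1909, 1454 and 1231 CPM in oviduct tissue and 81.8, 44.6 and 61.1 CPM in OSE tissue. In the tumors it reached no more than 13.2 CPM, in Tumor1, with a median of 6.90 CPM. Here the order was oviduct, OSE tissue and tumors, with no overlap between these 3 groups. *Actg2*, the γ-actin of visceral muscle, had 238, 256 and 143 CPM in oviduct tissue, 13.6, 9.39 and 8.36 CPM in OSE tissue and 3.23 to 23.2 CPM in tumors. The last 2 of these groups overlapped. Not 1 read of *Actg2* was found in the 15 cultured libraries. A part of its 3′ end, 1.66% of the 31-base words there, also occurs in *Actc1* or in pseudogenes, so a few of its reads may be split or lost.

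*Tagln*, or transgelin, is an actin-bundling protein of smooth muscle. It had 1216, 1160 and 677 CPM in oviduct tissue, 100.5, 82.1 and 96.1 CPM in OSE tissue and 16.7 to 219 CPM in tumors. *Cnn1*, or calponin, which restrains the actin-activated motor, had 95.7, 141 and 113 CPM in oviduct tissue, 4.26, 3.52 and 4.18 CPM in OSE tissue and 0 to 5.16 CPM in tumors. *Lmod1*, a leiomodin that starts actin filaments, behaved in the same way, with 62.8, 71.3 and 41.4 CPM in oviduct tissue, 3.14 to 6.81 CPM in OSE tissue and 0 to 5.79 CPM in tumors. *Cnn1* had no read in any culture, and *Lmod1* had 1 read, in TBP clone 2.

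*Des*, or desmin, builds the intermediate filaments of all muscle types. It had 211, 214 and 104 CPM in oviduct tissue and 8.52, 1.17 and 4.70 CPM in OSE tissue, and again 0 reads in culture. In tumors it ran from 9.43 CPM in Tumor3 to 250 CPM in Tumor5. *Tpm2*, a tropomyosin that lies along the thin filament, had 172, 186 and 132 CPM in oviduct tissue and 22.1, 16.4 and 16.2 CPM in OSE tissue. Its tumors spread most widely of all, from 24.6 CPM in Tumor3 to 904 CPM in Tumor5.

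Oviduct tissue, which includes the muscle wall, was compared with OSE tissue. All 10 genes were higher in oviduct tissue by edgeR's quasi-likelihood test with Benjamini-Hochberg adjustment, and for all 10 every oviduct library lay above every OSE library. Of the 8787 genes tested, 26.9% were called higher in oviduct tissue and 24.3% lower, and 59.0% had groups that did not overlap in either direction. *Cnn1*, *Des* and *Lmod1*, with 16, 20 and 19 reads over the OSE libraries, passed the filter on low counts through oviduct tissue alone. They could only come out higher there, so their number and p-values add nothing to their levels. *Actg2* would not have passed through the OSE libraries alone. The median log2 fold change of the 10 genes was 3.49, while that of all genes tested was 0.00. *Des* differed most, by 34.1-fold (log2 5.09 ± 0.38, SE, adjusted p = 4.71e-08). *Cnn1* was 27.6-fold, *Myh11* 24.1-fold and *Actg2* 20.4-fold higher. *Acta2* and *Tpm2* were 7.87-fold and 8.90-fold higher, and *Tagln* and *Lmod1* 10.8-fold and 11.7-fold. *Mylk* was 6.19-fold higher. The smallest difference was that of *Smtn*, 2.63-fold (log2 1.39 ± 0.19, adjusted p = 1.68e-05), and in a single fit of all 27 libraries its adjusted p was 0.170. In these bulk samples, fewer muscle cells and less RNA of these genes per cell cannot be told apart. Among the 7 pericyte genes, 4 were tested and all 4 were higher in oviduct tissue, and of 11 fibroblast genes 7 were higher and none lower. The ovarian RNA of the OSE tissue moved the opposite way, with 7 of 7 genes lower in oviduct tissue, and its part in the difference was not tested.

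**Figure D2:**
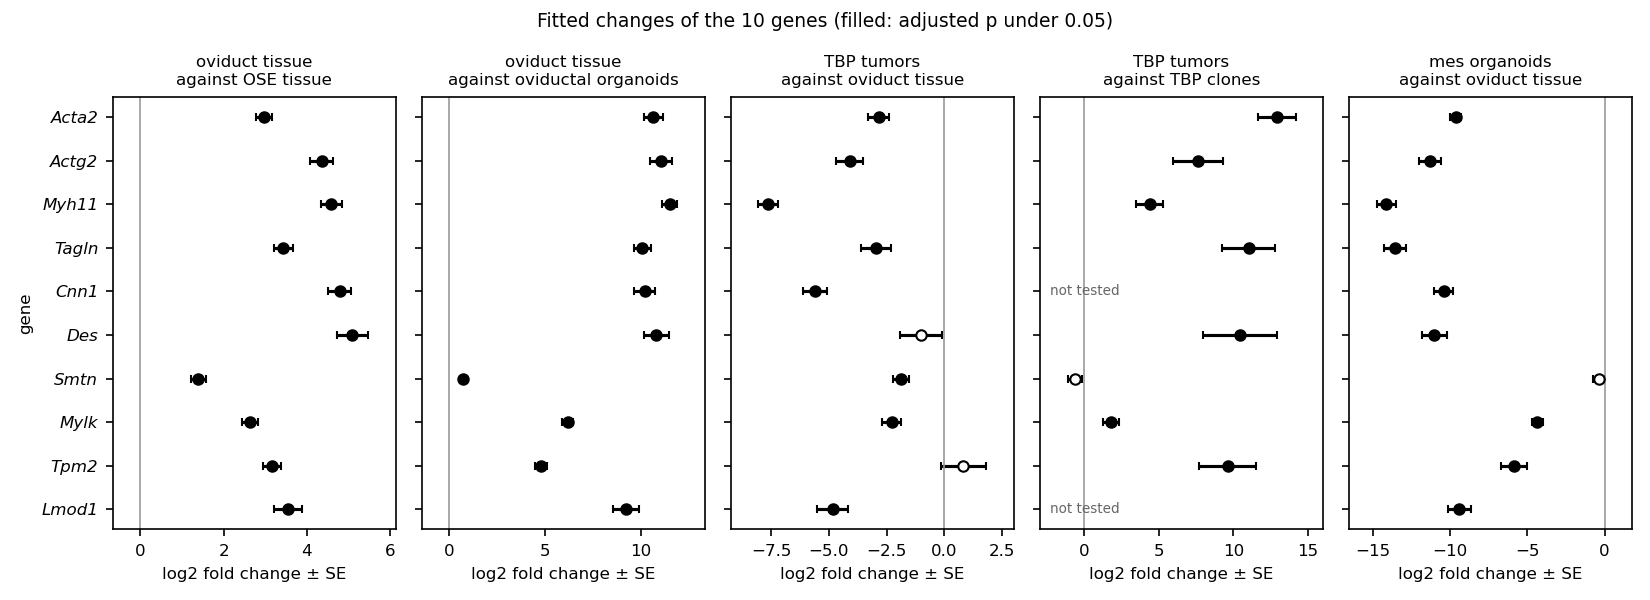
Fitted log2 fold change (x axis, bars are the SE) of each gene (y axis) in 5 comparisons, with filled points for an adjusted p under 0.05 by edgeR. All 10 points are filled and right of 0 for oviduct tissue against either OSE tissue or oviductal organoids, while *Des* and *Tpm2* are open for tumors against oviduct tissue, and *Smtn* lies closest to 0 in 4 of the 5 panels. A change against a group without reads depends on the prior count and is no measure of size.

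Oviductal organoids showed what was left of the program once the epithelium was grown alone. All 10 genes were called higher in the tissue, where 24.2% of the 9477 genes tested were called in that direction, and again no groups overlapped, as for 54.7% of the genes tested. *Actg2*, *Cnn1*, *Des*, *Lmod1*, *Myh11* and *Tagln*, with 0 to 4 reads each over all organoids, passed the filter on low counts through the tissue alone. So did *Acta2* and *Tpm2*, with 10 and 27 reads over all organoids. These genes could only come out higher in the tissue, so their number and p-values add nothing to their levels. *Mylk* would not have passed through the organoids alone. *Actg2*, *Cnn1*, *Des* and *Lmod1* had no read in the 3 organoid lines. Set against 3 counts in each line, they were at least 107-fold, 58.5-fold, 88.5-fold and 29.3-fold higher in the tissue. *Myh11* had 2 reads in the organoids, and the ratio of reads over scaled library size was 3852 (95% exact counting interval 1066 to 31816). *Acta2* had 10 reads in organoid line 1 and 0 in the others, and differed by log2 10.67 ± 0.50 (adjusted p = 5.32e-08). *Tagln* had 4 reads in all, and differed by log2 10.09 ± 0.42 (adjusted p = 2.88e-08). *Tpm2*, with 3.30, 7.72 and 7.30 CPM in the organoids, was 27.6-fold higher in the tissue. *Mylk* was 72.8-fold higher. In the same libraries 5 of 6 endothelial genes and 10 of 11 fibroblast genes were called higher in the tissue, while 5 of 8 epithelial genes were called lower. Genes of the first of these lists without organoid reads, such as *Cdh5* and *Col1a1*, could likewise only come out higher.

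*Smtn* and *Mylk* were the 2 members with reads in every culture. *Smtn* encodes smoothelin, an actin-binding protein whose name comes from contractile smooth muscle, and *Mylk* encodes myosin light chain kinase, of which longer forms are made outside muscle. The counts do not separate the forms of either gene. *Smtn* had 195, 223 and 140 CPM in oviduct tissue and 96.3, 123 and 115 CPM in oviductal organoids, a difference of 1.66-fold (log2 0.73 ± 0.20, adjusted p = 0.0116). That call was lost without oviduct library 1 (adjusted p = 0.0508), without library 2 (0.0676) and in the fit of all libraries (0.472). *Mylk* had 610, 585 and 580 CPM in oviduct tissue but 8.97, 2.57 and 11.3 CPM in oviductal organoids. Cas9-GFP oviductal organoids had 23.6, 48.7 and 20.4 CPM of *Mylk*, above each C57BL/6 line, a comparison that was not tested. The 2 OSE organoid lines did not resemble each other in *Smtn*, with 1 read (0.755 CPM) in the first and 348 reads (178 CPM) in the second. Clones ran from 22.7 CPM of *Smtn* in TBP clone 1, which rested on 2 reads, to 124 CPM in TBP clone 3.

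**Figure D3:**
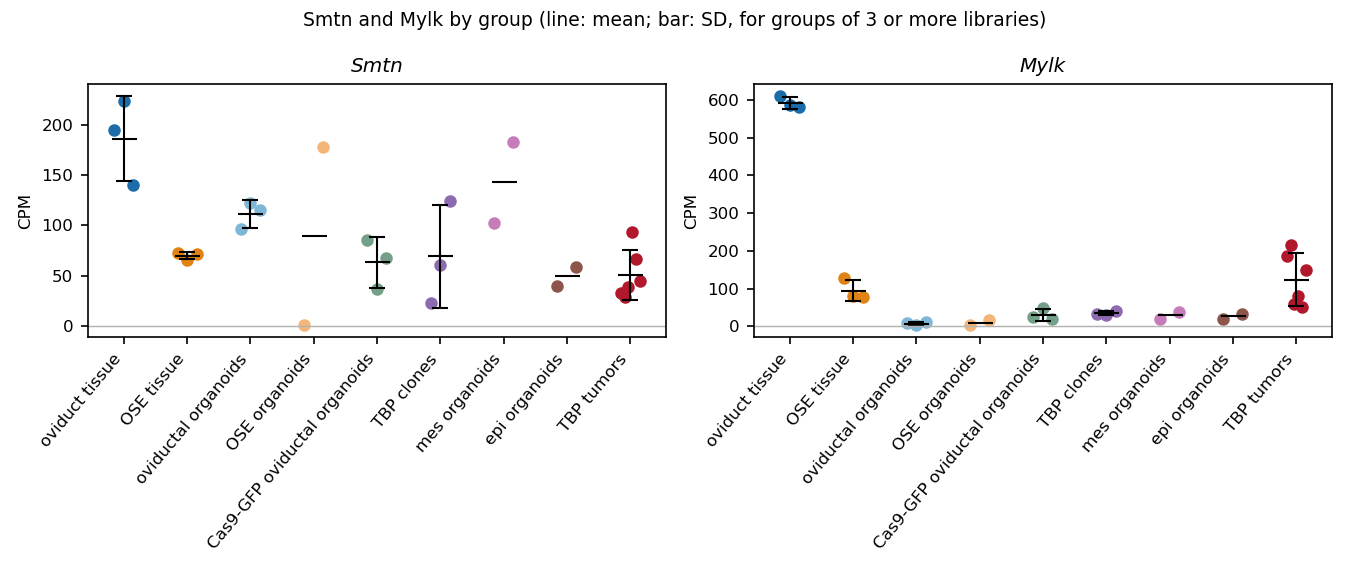
CPM of *Smtn* (left) and *Mylk* (right) in each library (points) by group, with the mean as a line and, for groups of 3 or more libraries, the SD as a bar. *Smtn* in oviductal and mes organoids comes close to oviduct tissue, and *Mylk* in every other group stays under 250 CPM, while oviduct tissue has 580 to 610 CPM.

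The tumors, which can hold host stroma, were then set against oviduct tissue and its muscle wall. Of the 10 genes, 8 were lower in tumors, 0 were higher, and *Des* and *Tpm2* were not called. Among 10827 genes tested, 22.4% were lower and 23.7% higher in tumors, and 45.0% had groups that did not overlap, against 8 of the 10 members. The median log2 fold change of the members was -2.90, and that of all genes 0.08. *Myh11* fell by 7.63 ± 0.42 on the log2 scale, or 198-fold (adjusted p = 2.29e-06). *Cnn1* was 48.5-fold lower (log2 -5.60 ± 0.53), *Lmod1* 28.6-fold (-4.84 ± 0.65) and *Actg2* 17.1-fold (-4.10 ± 0.58). *Cnn1* and *Lmod1*, with 30 and 23 reads over the tumors, passed the filter on low counts through oviduct tissue alone. Both could only come out lower in tumors, so their calls add nothing to their levels. The difference in *Acta2* was smaller, 7.21-fold (log2 -2.85 ± 0.44, adjusted p = 0.000623), as was that in *Tagln*, 7.78-fold (log2 -2.96 ± 0.64, adjusted p = 0.00401). *Mylk* was 4.86-fold and *Smtn* 3.69-fold lower. All 8 calls were made by DESeq2 as well, and with any 1 library left out the count stayed at 8. It was 9 without Tumor5 and Tumor6, when *Des* was added.

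Fibroblast genes went the other way. Of the 11 listed, 7 were higher in tumors and 0 lower, among them *Col1a1*, a chain of type I collagen (log2 4.02 ± 0.68, adjusted p = 0.00107), and *Postn*, a matrix protein of activated fibroblasts (log2 4.12 ± 0.42, adjusted p = 6.02e-05). The pericyte genes divided: *Kcnj8* and *Rgs5* were lower (log2 -4.40 ± 0.46 and -4.20 ± 0.49), as was *Abcc9*, while *Pdgfrb*, the receptor for platelet-derived growth factor, was higher (log2 2.23 ± 0.76, adjusted p = 0.0347). Tumor2 and Tumor4, which had the least *Acta2* (168 and 197 CPM) and *Tagln* (16.7 and 33.8 CPM), had the most *Col1a1*, 10165 and 13095 CPM, where the other 4 tumors had 1845 to 5298 CPM. Within the tumors, then, *Acta2* and *Tagln* were not highest where the collagen was.

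The composition of the program could be read within each library, free of scaling, as reads per 100 reads of *Acta2*. For *Myh11* this was 56.7, 40.7 and 35.7 in oviduct tissue, 15.1, 11.8 and 15.6 in OSE tissue and 1.17 to 1.96 in the 6 tumors. The tumors varied little in this ratio although their *Acta2* reads ran from 191 to 1560. Their counting intervals, at the widest 0.529 to 5.10 in Tumor4 with 4 reads of *Myh11*, stayed under the lowest OSE interval, which began at 8.20 in OSE tissue 2. For *Cnn1* the ratio was 2.84 to 3.95 in oviduct tissue, 0.789 to 1.07 in OSE tissue and 0 to 1.03 in tumors. *Tagln* did not follow: its ratio was 19.6 to 36.1 in oviduct tissue, 18.6 to 24.5 in OSE tissue and 9.95 to 31.4 in tumors, all overlapping. The actin of the tumors thus came with *Tagln* in an overlapping proportion but with less *Myh11*, and OSE tissue lay between. These ratios are a description of the libraries and were given no test.

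**Figure D4:**
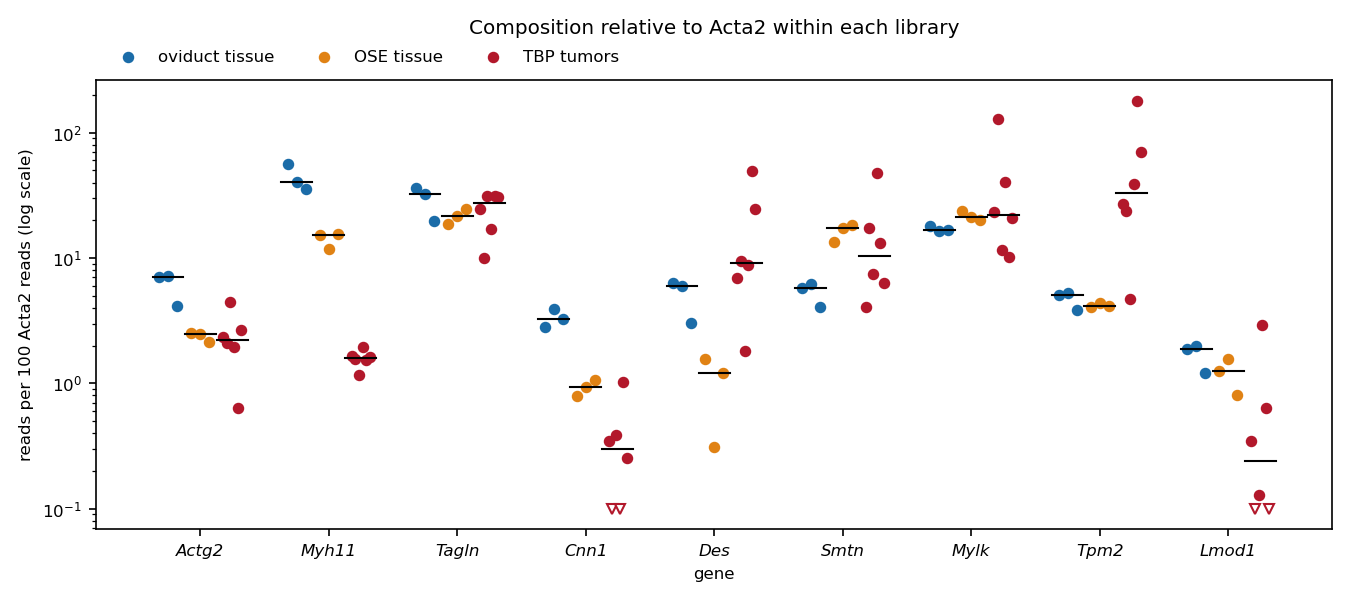
Reads of each gene per 100 *Acta2* reads (y axis, log scale) in every library of oviduct tissue, OSE tissue and TBP tumors (points), with black lines at the medians and open triangles for libraries without a read. *Myh11* falls into 3 separate levels with medians of 40.7, 15.1 and 1.59, while *Tagln* overlaps, with medians of 32.4, 21.7 and 27.5.

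*Des* and *Tpm2*, which are also genes of skeletal muscle, had another pattern in the tumors. Of 14 genes of skeletal muscle, such as *Acta1*, *Ckm* and *Myh4*, all had reads in the tumors, 13 were called higher there than in oviduct tissue and 0 lower. In oviduct tissue *Myh1*, *Myh4*, *Ckm* and *Pvalb* had no read and the others few. Genes that passed the filter on low counts through the tumors alone could only come out higher, so their number adds nothing to their levels. The summed level of the 14 genes was 3005, 626, 123, 1208, 20676 and 7411 CPM in Tumor1 to Tumor6. In the same order *Tpm2* had 213, 39.5, 24.6, 77.3, 904 and 498 CPM, and *Des* had 55.1, 15.8, 9.43, 17.4, 250 and 175 CPM. From lowest to highest, the tumors stood in 1 order for all 3 quantities, with Tumor3 lowest, followed by Tumor2, Tumor4, Tumor1, Tumor6 and Tumor5. *Acta2* and *Tagln* did not take that order, since Tumor3, with the least skeletal RNA, had 520 and 163 CPM of them. With Tumor5 and Tumor6 left out, an alternative chosen after the values were seen, *Des* was lower than in oviduct tissue (log2 -2.88 ± 0.56, adjusted p = 0.00377, against -1.02 ± 0.90 and 0.376 with all 6). *Tpm2* changed its sign, from log2 0.83 ± 0.99 (adjusted p = 0.517) to -0.92 ± 0.63 (0.259). The part of host skeletal muscle in the *Des* and *Tpm2* counts was not tested. A share of 0.419% of the 31-base words at the 3′ end of *Tpm2* also occurs in *Tpm1*.

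**Figure D5:**
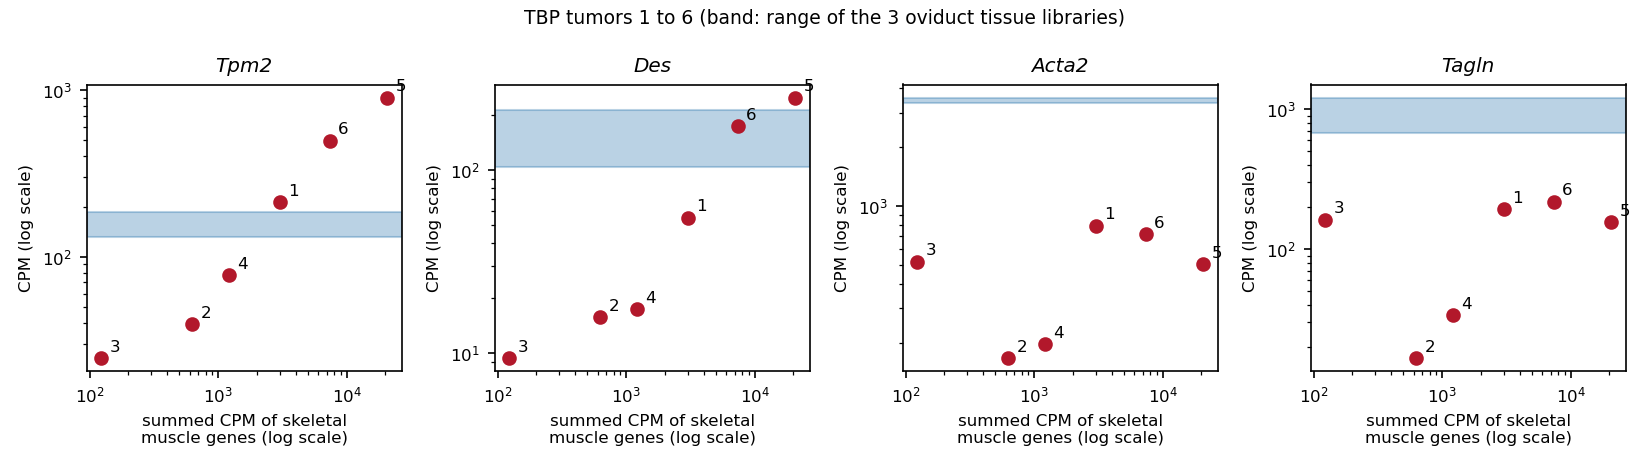
CPM of *Tpm2*, *Des*, *Acta2* and *Tagln* (y axes, log scale) in TBP tumors 1 to 6 against the summed CPM of 14 skeletal muscle genes (x axis, log scale), with a band for the range of oviduct tissue. *Tpm2* and *Des* rise from Tumor3 (24.6 and 9.43 CPM) to Tumor5 (904 and 250 CPM) in the order of the skeletal sum, and *Acta2* and *Tagln* stay under the band in all 6 tumors.

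Against the TBP clones that were transplanted, 7 of the 8 members tested were higher in tumors and 0 were lower, where 20.1% of 10473 genes were called higher. Of those tested, *Acta2*, *Actg2*, *Tagln*, *Des*, *Myh11* and *Tpm2* had 0 to 2 reads each over all clones. They passed the filter on low counts through the tumors alone and could only come out higher, so their number adds nothing to their levels. The clones had no read of *Acta2*, *Tagln*, *Des* or *Actg2*, and TBP clone 1 was too shallow to put a narrow limit on any of them. With 3 counts allowed in each clone, *Acta2* was at least 39.9-fold, *Tagln* at least 10.8-fold and *Des* at least 7.19-fold higher in tumors. *Actg2* was called as well (adjusted p = 0.00869), but its mean of 11.9 CPM in tumors did not exceed that limit, so no fold is given. *Myh11* had 2 reads in the clones and differed by a ratio of reads of 25.3 (95% exact counting interval 6.81 to 212). For *Tpm2*, also with 2 reads in clones, the ratio was 1157 (320 to 9554). *Mylk*, with 34.1, 30.0 and 40.0 CPM in the clones and 51.0 to 217 CPM in the tumors, was 3.43-fold higher (log2 1.78 ± 0.53, adjusted p = 0.0247). Its value in TBP clone 1 rested on 3 reads. *Smtn* was not called (log2 -0.65 ± 0.47, adjusted p = 0.316), and *Cnn1* and *Lmod1* were too low to be tested. Without TBP clone 3 the count fell to 4, as *Actg2* (adjusted p = 0.0562), *Des* (0.0628) and *Mylk* (0.0683) lost their calls. *Mylk* also lost its call without TBP clone 1 (adjusted p = 0.0539) or TBP clone 2 (0.101). Without Tumor5 and Tumor6, 6 members could be tested and 5 were higher. Endothelial genes were higher in tumors for 6 of 6, and fibroblast genes for 11 of 11. In the clones these lists summed to 0 to 11.4 CPM and 4.24 to 34.1 CPM. Their genes too passed the filter through the tumors and could only come out higher. The part of endothelial and fibroblast genes in the members' change was not tested.

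The mes organoids expressed part of the fibroblast list in culture, and it could be asked whether they expressed the contractile genes of the tumors. Apart from *Smtn* and *Mylk*, they had few or no reads of them. T1-mes and T3-mes had 4.93 and 3.77 CPM of *Acta2* (11 and 8 reads), no read of *Tagln*, *Myh11*, *Actg2*, *Cnn1*, *Des* or *Lmod1*, and *Tpm2* only in T3-mes, with 12 reads (5.66 CPM). The same libraries had 631 and 1297 CPM of *Col1a1*, 1243 and 6731 CPM of *Fn1*, which encodes fibronectin, and 391 and 738 CPM of *Vim*, the intermediate filament of mesenchymal cells, which is not on the fibroblast list. Other genes of that list were low in them, with 0.448 and 0 CPM of *Thy1* and 0 and 5.66 CPM of *Postn*. T1-mes and T3-mes were not alike in makeup. The 8 epithelial genes summed to 3638 CPM in T1-mes and 337 CPM in T3-mes, and the 11 fibroblast genes to 5328 and 17306 CPM. Of the 2 epi organoid libraries, T2-epi had 1 read of *Acta2* and T4-epi 6 reads of *Tagln*. The ratio of *Acta2* reads between mes and epi organoids was 18.6, with an exact counting interval of 2.96 to 774.

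Between mes and epi organoids only *Smtn* and *Mylk* had enough reads for a test, and edgeR called neither; at an unadjusted p under 0.05 it was 1 of them, *Smtn*, and DESeq2 called 0. *Smtn* had 103 CPM in T1-mes and 183 CPM in T3-mes, against 40.3 CPM for T2-epi and 58.8 CPM for T4-epi, and the groups did not overlap (log2 1.54 ± 0.44, adjusted p = 0.200), as was so for 47.5% of all genes tested. *Mylk* had 20.2 and 38.2 CPM in mes and 19.9 and 33.2 CPM in epi organoids (log2 0.15 ± 0.52, adjusted p = 0.937). Of 9775 genes tested, 1.0% were called higher and 0.123% lower in mes organoids. Fibroblast genes made up 6 of those called higher, among them *Pdgfra*, the receptor for platelet-derived growth factor on fibroblasts (log2 7.01 ± 0.44, adjusted p = 0.0236).

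Set against oviduct tissue, the mes organoids were lower in 9 of the 10 members, where 20.7% of 10387 genes were called lower. For those 9 the groups did not overlap, as for 61.2% of the genes tested. *Myh11*, *Tagln*, *Actg2*, *Des*, *Cnn1* and *Lmod1*, without a read in mes organoids, passed the filter on low counts through the tissue alone. So did *Acta2* and *Tpm2*, with 19 and 12 reads in mes organoids. The direction of all these genes was thus fixed, and their number and p-values add nothing to their levels. *Myh11* was at least 1110-fold, *Tagln* at least 737-fold, *Actg2* at least 154-fold, *Des* at least 128-fold, *Cnn1* at least 84.5-fold and *Lmod1* at least 42.4-fold lower. *Acta2* was 785-fold lower (log2 -9.62 ± 0.36, adjusted p = 0.000163), *Tpm2* 57.2-fold and *Mylk* 20.4-fold. *Smtn* alone was not called, with 143 ± 56.7 CPM (SD, n = 2) in mes organoids and 186 ± 42.2 CPM (SD, n = 3) in oviduct tissue (log2 -0.39 ± 0.33, adjusted p = 0.391). Without T3-mes it was called lower too (log2 -0.88 ± 0.28, adjusted p = 0.0229), in a fit where T1-mes alone stood for the mes organoids and was assumed to vary like the oviduct libraries.

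The other genes of the contractile machinery were counted from a list of 21. Between oviduct and OSE tissue 19 were tested, of which 17 were higher and 0 lower in the oviduct, led by *Synpo2*, or myopodin, an actin-binding protein of the Z-disc and dense body (log2 6.76 ± 0.45, adjusted p = 1.38e-08). In tumors against oviduct tissue 20 were tested, and 7 were lower and 2 higher. Lower by the most were *Synpo2* (log2 -7.96 ± 0.36), *Ppp1r14a*, an inhibitor of myosin phosphatase (-6.80 ± 0.66), *Pcp4*, a calmodulin-binding peptide (-6.18 ± 0.70), and *Pgm5*, a protein of adherens junctions in muscle (-4.72 ± 0.42). *Synpo2*, *Ppp1r14a* and *Pcp4*, with 5, 5 and 7 reads over the tumors, could only come out lower. In mes organoids 11 of 19 were lower than in oviduct tissue and 2 higher. *Cald1*, or caldesmon, which is made in non-muscle forms as well, was the 1 gene of this list called higher in mes than in epi organoids (log2 2.81 ± 0.40, adjusted p = 0.0419).

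Receptors, channels and enzymes of the cGMP pathway, which relax or excite the muscle, followed the contractile genes in the tumors, where 9 of 12 tested were lower and 0 higher than in oviduct tissue. *Pgr*, the progesterone receptor (log2 -6.49 ± 0.82), is made in oviduct epithelium too. *Kcnmb1*, a subunit of the calcium-activated potassium channel in smooth muscle, was 48.2-fold lower (log2 -5.59 ± 0.59, adjusted p = 6.79e-05), and *Mrvi1*, a target of cGMP-dependent kinase, 27.7-fold (log2 -4.79 ± 0.52). The transcription factors of muscle were mixed, with 3 of 8 higher and 3 lower in tumors. *Meis1*, *Nr2f2* and *Gata6* were lower, and *Mef2c* was higher (log2 1.85 ± 0.55, adjusted p = 0.0205). *Myocd*, which encodes myocardin, was too low for this test, with 13.2, 12.3 and 6.27 CPM in oviduct tissue and 1 read in the 6 tumors together. *Srf*, its partner, had 119 to 152 CPM in oviduct tissue and 103 to 157 CPM in tumors. Of the non-muscle cytoskeletal genes, 8 of 10 were higher in tumors than in oviduct tissue, among them *Actb* and *Actg1*, the cytoplasmic actins (log2 1.65 ± 0.36 and 1.67 ± 0.41). *Myh10* was lower (log2 -1.51 ± 0.24).

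Over all 27 libraries, the genes outside the 10 whose log2 CPM ran most like the mean of the members' standardized values were *Myl9* (Pearson's r 0.98), *Abcc9* (0.97), *3632451O06Rik* (0.96), *Aoc3* (0.96), *Ldb2* (0.96), *Sparcl1* (0.95), *P2ry14* (0.95), *Popdc2* (0.95), *Col8a2* (0.95) and *Ehd3* (0.94). They were ranked among 12287 genes with at least 10 counts in at least 3 libraries. The coefficients describe the libraries, which fall into tissue, tumor and culture, and carry no test. *Myl9* is the regulatory light chain that the kinase acts on. It had 184 CPM on average in oviduct tissue, 14.0 in OSE tissue, 14.8 in tumors and 0 reads in mes organoids. *Smtn* was the member least like the mean (r 0.37), followed by *Tpm2* (0.83) and *Mylk* (0.88), while *Actg2* was closest (0.97). Each member is part of that mean, which raises its r, so these values are not comparable with those of genes outside the 10.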

How the data were processed

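RNA was sequenced by the authors with CEL-Seq2 on a NextSeq500. According to their methods, reads were aligned to GRCm38 with BWA, and reads mapped uniquely, with high mapping quality and in the direction of transcription were counted. The deposited file holds raw read counts per gene symbol, whole numbers that were neither normalized nor corrected for unique molecular identifiers. Tissue and tumor RNA was extracted with Trizol and organoid RNA on RNeasy columns, so that extraction and kind of sample cannot be told apart. The 1 spike-in row, with 1 count in all, was left out, and each column was assigned to its group by the labels.

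Groups were compared with edgeR 4.0.16 (TMM scaling, filterByExpr, quasi-likelihood F-test, R 4.3.3) on the libraries of both groups, with Benjamini-Hochberg adjustment over all genes tested and 0.05 as the threshold. The tests were checked on simulated data. DESeq2 1.42.0, RLE size factors, no filter on low counts, a joint fit of every library, omission of single libraries and a block on the replicate number were the alternatives. A listed gene with almost no reads in 1 group passed the filter on low counts through the other group alone, so the direction of its call was fixed. In a group without reads, a fold is the mean CPM of the other group over the mean level of 3 counts per library. Counting intervals are exact (Clopper-Pearson) at 95%. No pair of replicates, of 33 compared, agreed within counting error (chi-square per gene of at least 2.53). *Smtn*, *Des*, *Lmod1*, *Tagln* and *Mylk* overlap genes on the opposite strand only.

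The genes targeted in the TBP clones are not reported here. Members, gene lists and comparisons were chosen with earlier results of these data known. Of each list, at most 4 called genes with the largest changes are named for a comparison. Beyond that rule, *Col1a1*, *Fn1*, *Vim*, *Myocd* and *Srf* are given by their levels, as are the lists of genes outside the program, chosen after their values were seen. Promoters came from RefSeq (GRCm38.p6) and gene positions from GENCODE. Plots used matplotlib 3.10.9 (Python 3.11.15).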

Additional observations from a re-analysis of the deposited data

Results flagged for a closer look

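The OSE organoids and Cas9-GFP oviductal organoids entered no test, and members with more than 3 reads in any of their libraries are given here. In OSE organoids the highest levels were 178 CPM of *Smtn*, 15.9 CPM of *Mylk*, 8.30 CPM of *Tpm2* and 3.58 CPM of *Tagln*. The *Smtn*, *Mylk* and *Tagln* values came from OSE organoids 2, and that of *Tpm2* from OSE organoids 1, which had 1 read of *Smtn*. In Cas9-GFP oviductal organoids the highest levels were 85.7 CPM of *Smtn* and 48.7 CPM of *Mylk*. *Acta2*, *Actg2*, *Myh11*, *Cnn1*, *Des* and *Lmod1* had no read in these 5 libraries. In the group of 6 tumors, no member had a library standing apart by Dixon's 95% limit, for which chance alone would mark about 1 group in 20.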

How the results depend on the processing

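Counts of members called were the same or within 1.5 times in 134 of 136 alternatives. The 2 that moved were tumors against TBP clones without TBP clone 3, where 4 rather than 7 members were higher (range over single libraries left out 4 to 7), and mes against epi organoids without T1-mes, where 1 rather than 0 was higher (range 0 to 1) and the lone mes library was assumed to vary like the epi organoids. Over all libraries left out 1 at a time, the count higher in oviduct tissue was 10 against OSE tissue and 9 to 10 against oviductal organoids, and the count lower than in oviduct tissue was 8 in tumors and 9 to 10 in mes organoids. Of 575 fold changes of single members, 4 changed sign: *Tpm2* in tumors against oviduct tissue without Tumor5 and Tumor6 (log2 -0.92), *Smtn* in tumors against TBP clones without TBP clone 3 (log2 0.045, range over single libraries left out -0.93 to 0.045), and *Mylk* in mes against epi organoids without T2-epi (log2 -0.23) and without T3-mes (log2 -0.41, range -0.41 to 0.55). None of these 4 passed the threshold in either setting, and the cause was not tested. In the fit of all 27 libraries 9 rather than 10 members were called higher in oviduct tissue against OSE tissue and against oviductal organoids, *Smtn* being lost in each, and 8 rather than 7 were higher in tumors than in TBP clones. With RLE size factors the median log2 fold change of all genes between tumors and TBP clones moved from 0.16 to 0.29, under the change of each member called there.

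Counts over all genes were less stable between mes and epi organoids, where 98 genes were called higher and 12 lower by edgeR, 396 and 109 by DESeq2, 236 and 47 without a filter, 486 and 69 in the fit of all libraries and 0 to 748 and 0 to 710 with 1 library left out. Single libraries left out also moved the counts for tumors against TBP clones (772 to 1631 lower, 1228 with all) and mes organoids against oviduct tissue (617 to 2177 higher, 1513 with all). The fit of all libraries moved 2133 genes lower in oviduct than OSE tissue to 1231, 1771 lower than in oviductal organoids to 1144, and 2105 higher and 1228 lower in tumors than TBP clones to 3163 and 2088.

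Replicate numbers were shared between groups. Libraries with the same number correlated by 0.03 to 0.09 in their deviations, below the 0.1 that would count as pairing, although in both comparisons of 3 against 3 each library correlated best with its own number. With a replicate block, 10 members stayed higher in oviduct tissue against OSE tissue and 10 against oviductal organoids, and 0 were called between mes and epi organoids, where the block called 212 genes higher and 28 lower.

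Depth limits what can be said of the TBP clones most, since TBP clone 1 allows up to 34.1 CPM of a gene without reads.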
